A study of Mus musculus with 24 samples.

Results

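The genes described here are those that mpkCCD cells expressed at a mean of at least 5 CPM (estimated counts scaled to library size) in either of 2 groups of libraries, cells exposed to dDAVP for 12 h and cells given vehicle for 12 h. They numbered 12229 of the 29743 genes tested and of the 54432 genes in the tables, and are called the expressed genes below. mpkCCD is an immortalised line of mouse kidney epithelium (cortical collecting duct), labelled as wild type, C57BL/6. dDAVP (desmopressin) is a synthetic analogue of vasopressin that acts on the V2 receptor. The 12 h groups held 3 libraries each, within a series of 24 libraries that also had dDAVP and vehicle at 3, 6 and 24 h. In all groups the cells had been on permeable filters for 6 days and in minimal medium for 24 h before dDAVP or vehicle was put in the basolateral chamber. Each time had vehicle libraries of its own, so the effects at different times share no control. The labels do not say whether the 3 libraries of a group came from separate cultures, so the p-values rest on a spread that may be technical only. All of them come from 1 cell line.

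Vasopressin binds the V2 receptor on the basolateral side of collecting duct principal cells, where the receptor couples through the Gs protein to adenylyl cyclase. The cyclic AMP made there activates protein kinase A, which acts on transcription factors of the CREB family and on the water channel aquaporin-2. Aquaporin-2 then reaches the apical membrane, and its gene is transcribed more, which is the best known response of these cells. Phosphodiesterases break cyclic AMP down again.

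Libraries at 12 h held 17.5 to 23.0 M (mega) estimated counts. Of 14 markers of principal cells, 9 were among the expressed genes, including Avpr2, Aqp2, Scnn1a, Hsd11b2 and Gata3. The summed level of all 14 ran from 1165 to 1261 CPM with vehicle and from 1234 to 1325 CPM with dDAVP. This sum includes Aqp2, which rose from a mean of 6.93 to 136 CPM. The median log2 fold change of the 9 expressed markers was 0.04, and -0.01 with the receptor share described below in the model. Sums of markers are over whole lists. Aqp3, Aqp4, Kcnj1, Elf5 and Scnn1b were below 5 CPM in both groups. Of the markers of other cell types, the expressed genes held 3 of 8 of endothelial cells (Vwf, Pecam1 and Egfl7), 3 of 8 of the thick ascending limb and distal convoluted tubule (Egf, Slc12a3 and Tmem72), 2 of 6 of podocytes, 2 of 8 of immune cells, 2 of 14 of intercalated cells, 1 of 12 of the proximal tubule and 0 of 9 of fibroblasts. Endothelial markers summed to between 33.0 and 58.6 CPM with vehicle and between 39.2 and 39.8 CPM with dDAVP. Those of the thick ascending limb and distal convoluted tubule summed to between 13.4 and 40.8 CPM and between 20.3 and 27.0 CPM, and intercalated cell markers to between 56.9 and 62.1 CPM and between 57.7 and 62.4 CPM, in the same order. Synpo, an actin-binding protein from the list of podocyte markers, was the 1 marker of another cell type that was called, at 21.1 ± 4.78 CPM with vehicle and 35.1 ± 3.13 CPM with dDAVP (SD, n = 3), and it was called only with the receptor share described next in the model (edgeR's adjusted p = 0.0600 without and 0.000666 with it). Of the 12229 genes, 11751 reached 5 CPM in both groups, 379 with vehicle only and 99 with dDAVP only. The gene just inside the limit was Gm16196 (5.0018 CPM with vehicle, 4.62 with dDAVP), and the gene just outside was Fkbp11 (4.9987 CPM with vehicle, 4.72 with dDAVP).

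The vehicle libraries differed widely in the share of their counts that fell on olfactory and vomeronasal receptor genes (the Olfr and Vmn families, 1428 genes), best known from sensory neurons of the nose. This share was 0.725% in vehicle replicate 1, 0.172% in replicate 2 and 0.492% in replicate 3. In the dDAVP libraries it was 0.369%, 0.335% and 0.27%, so these sat close together and inside the range of the vehicle libraries. The mean share was 0.463% ± 0.277 (SD, n = 3) with vehicle and 0.325% ± 0.0506 (SD, n = 3) with dDAVP, a log2 ratio of -0.51. An exact two-sided permutation test gave p = 0.5, where 0.1 is the smallest p that 3 against 3 libraries allow. Without vehicle replicate 2 the log2 ratio was -0.90, and without vehicle replicate 1 it was -0.03.

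Most expressed genes ran in the reverse order. Vehicle replicate 2 had the highest level, replicate 3 the middle and replicate 1 the lowest for 70.8% of them, against 3.68% of the 17514 tested genes below 5 CPM. The order of the share itself, with replicate 1 highest and replicate 2 lowest, was that of 13.7% of the expressed genes and 61.8% of the genes below 5 CPM. The median ratio of replicate 2 to replicate 1 was 0.45 on the log2 scale for the expressed genes and -1.22 for the others. Among the dDAVP libraries the median ratios of the 3 pairs were -0.01, -0.04 and -0.02. For this reason each gene is given from 2 fits of the same test (edgeR's quasi-likelihood test over all 24 libraries, with adjusted p by Benjamini-Hochberg over 29743 genes and called under 0.05), one without and one with the log2 receptor share of each library as a covariate. The biological coefficient of variation was 0.191 without and 0.0797 with the share. What sets the share was not tested. The plot of the receptor share beside the spread of the expressed genes shows both.

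**Figure D1:**
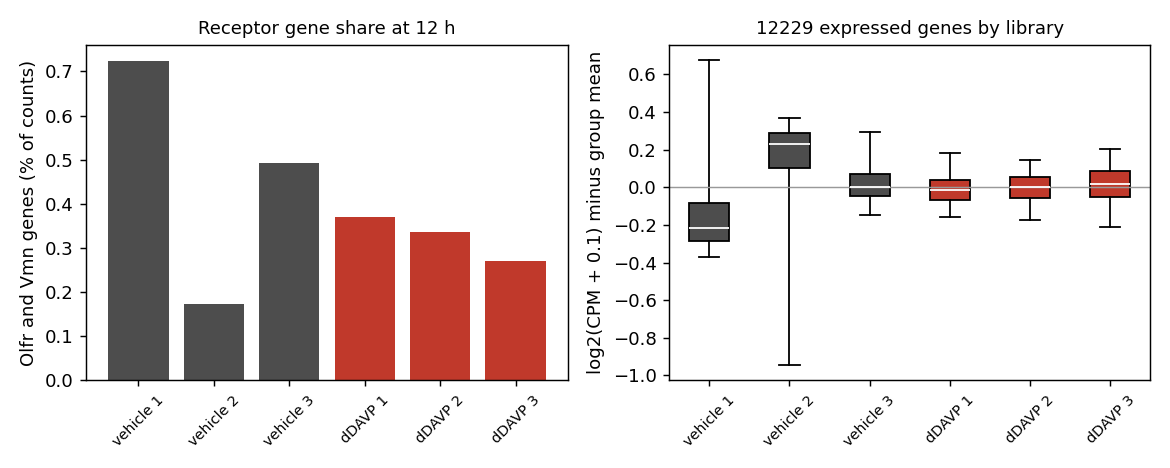
Left, the share of estimated counts (%) on Olfr and Vmn genes in each 12 h library, from 0.172% in vehicle 2 to 0.725% in vehicle 1. Right, for the 12229 expressed genes, the log2(CPM + 0.1) of a library minus the mean of its group (white line, median; box, quartiles; whiskers, 5th to 95th percentile), with medians of -0.22 in vehicle 1 and 0.23 in vehicle 2.

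Without the share in the model, 21 expressed genes rose with dDAVP at 12 h and none fell (0.172% of the expressed genes, against 0.0773% of all genes tested called in either direction, 0.074% higher and 0.00336% lower). The count of 0 falls goes with 582 of 12229 expressed genes at an unadjusted p under 0.05 in either direction. Genes without any effect would give such a p in a fraction of 0.05, and 582 is below that. DESeq2 called 19 genes over all genes tested, of which 1 fell. With the share in the model, 57 expressed genes rose and 22 fell (0.466% and 0.18%, against 0.212% and 0.0841% of all genes tested, together 0.296%). All 21 rises of the first fit were among the 57. The median log2 fold change of the expressed genes was 0.07 without and 0.04 with the share, and that of all genes tested -0.05 and 0.04. At least 2-fold changes were few: 8 rises and 5 falls in the fit with the share. All 3 dDAVP libraries lay above all 3 vehicle libraries for 465 expressed genes and below them for 201 (3.80% and 1.64%, against 2.47% and 2.24% of all genes tested).

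**Figure D2:**
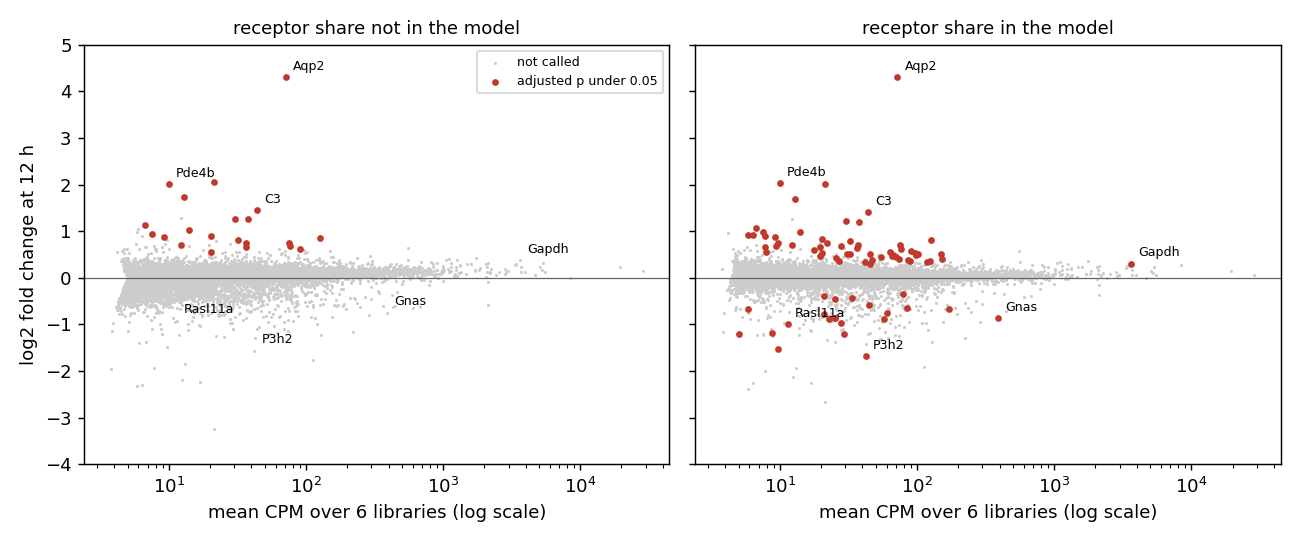
Log2 fold change at 12 h against the mean CPM of the 6 libraries (log scale) for the expressed genes, without (left) and with (right) the receptor share in the model. Red points are genes with an adjusted p under 0.05: 21 rises on the left, 57 rises and 22 falls on the right. The vertical axis runs from -4 to 5, and 1 gene lies beyond it.

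Aqp2, the apical water channel of principal cells, had the largest fold change among the called expressed genes. Its level was 5.31, 7.35 and 8.12 CPM in the vehicle libraries and 126, 139 and 144 CPM in the dDAVP libraries. The groups lie far apart, and the mean rose from 6.93 ± 1.45 to 136 ± 9.18 CPM (SD, n = 3), which is 19.8-fold (log2 4.31, SE 0.16, adjusted p = 3.78e-15). With the share in the model the log2 fold change was again 4.31. In bulk RNA, more cells that express a gene and more RNA per cell cannot be told apart, here and in all results below. Aqp5, a water channel better known from glands and lung, stands beside Aqp2 on chromosome 15 (99590782 to 99594829, with Aqp2 at 99579055 to 99584547, GRCm38). It had 18.9, 23.2 and 24.4 CPM with vehicle and 54.5, 46.6 and 57.6 CPM with dDAVP, a 2.39-fold rise (adjusted p = 6.23e-06). These 2 were the only aquaporins among the expressed genes, of 10 tested.

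Pde4b, a phosphodiesterase specific for cyclic AMP, had 4.75, 3.70 and 3.41 CPM with vehicle and 16.0, 16.2 and 15.8 CPM with dDAVP. The 3 dDAVP libraries nearly coincided, and the rise was 4.02-fold (log2 2.01, SE 0.16, adjusted p = 5.25e-08). It was the 1 of 6 expressed phosphodiesterases that was called, in either fit. Akap12, a scaffold that holds protein kinase A at the membrane, rose from 73.2, 109 and 90.2 CPM to 164, 176 and 151 CPM (log2 0.85, adjusted p = 0.00219). It was the 1 of 12 expressed A-kinase anchoring proteins that was called. Without dDAVP replicate 2 the call for Akap12 was lost in the fit without the share (adjusted p = 0.0544), and it was kept in all 6 such fits with the share.

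B3gnt7, a glycosyltransferase that extends N-acetyllactosamine chains, had 6.84, 9.37 and 8.72 CPM with vehicle and 35.7, 34.4 and 33.0 CPM with dDAVP, 4.15-fold more (adjusted p = 1.93e-08). In the same list of 14 expressed chain-extending transferases, St6gal1, which adds sialic acid, fell in the fit with the share (21.3, 35.5 and 29.7 CPM against 22.6, 21.9 and 21.1). The groups of St6gal1 overlapped, and it was called in 3 of 6 fits that left out 1 library (adjusted p up to 0.262, without vehicle replicate 2). Muc4, a membrane mucin, had 15.8, 21.1 and 16.8 CPM with vehicle and 41.6, 41.8 and 45.3 CPM with dDAVP, 2.39-fold more. Lypd3, a lipid-anchored surface glycoprotein, rose from 20.2, 26.5 and 23.5 to 39.1, 41.7 and 42.1 CPM. These were 2 of 12 expressed genes of the list of membrane mucins and surface glycoproteins, and Muc20 was added by the fit with the share (log2 0.40, adjusted p = 0.00879). Muc20 lost its call without vehicle replicate 1, vehicle replicate 2 or dDAVP replicate 2 (adjusted p from 0.092 to 0.144).

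Baiap2l2, a protein with a membrane-curving domain, had 4.51, 7.60 and 5.96 CPM with vehicle and 20.8, 17.0 and 21.8 CPM with dDAVP (log2 1.73, SE 0.18, adjusted p = 3.72e-06). Add3, a subunit of the spectrin-binding protein adducin, went from 57.2, 85.4 and 71.1 to 117, 109 and 99.7 CPM (log2 0.61, adjusted p = 0.027). These were the 2 called genes among 22 expressed actin and membrane-curving genes. C3, the central complement component, had 18.4, 26.5 and 25.5 CPM with vehicle and 57.5, 61.3 and 72.4 CPM with dDAVP, a 2.73-fold rise (adjusted p = 4.09e-06), and the other 3 expressed complement genes were not called. Lbp, which binds bacterial lipopolysaccharide, had 24.4, 31.0 and 29.4 CPM with vehicle and 45.5, 40.7 and 48.2 CPM with dDAVP (adjusted p = 0.00996). When 1 library was left out, Add3 and Lbp kept their call in 1 of 6 fits, the one without vehicle replicate 2 (adjusted p up to 0.57 and 0.228).

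Several called genes encode enzymes. Arg2, the mitochondrial arginase, had 3.26, 4.51 and 4.76 CPM with vehicle and 10.2, 8.50 and 8.78 CPM with dDAVP (log2 1.14, adjusted p = 0.0293). Sult1d1, a sulfotransferase, rose by 1.02 on the log2 scale (adjusted p = 0.00663). Inmt, an N-methyltransferase, had 44.4, 71.4 and 51.9 CPM against 94.5, 97.3 and 90.7 CPM, and Selenbp1, a methanethiol oxidase, 47.1, 67.6 and 62.2 CPM against 93.5, 89.6 and 99.4 CPM. Tgm2, a transglutaminase, and Crabp2, which carries retinoic acid in the cell, were the 2 called genes of 9 expressed retinoid genes (log2 0.71 and 0.75, both with an adjusted p of 0.0198). The remaining called rises were Nipal1, a magnesium transporter, Eya2, a coactivator of transcription, Arhgef3, a guanine nucleotide exchange factor, and Ghr, the growth hormone receptor, with log2 fold changes of 0.94, 0.89, 0.87 and 0.55. When 1 library was left out, Arg2, Inmt, Selenbp1, Crabp2 and Ghr kept their call only in the fit without vehicle replicate 2, 1 of 6, Arhgef3 in 2, Tgm2, Nipal1 and Eya2 in 3 and Sult1d1 in 4, with an adjusted p of up to 0.793 (Ghr, without dDAVP replicate 1). In all 21 genes every dDAVP library was above every vehicle library, against 3.80% of all expressed genes. The genes were chosen by their call in these libraries, so this is a description.

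**Figure D3:**
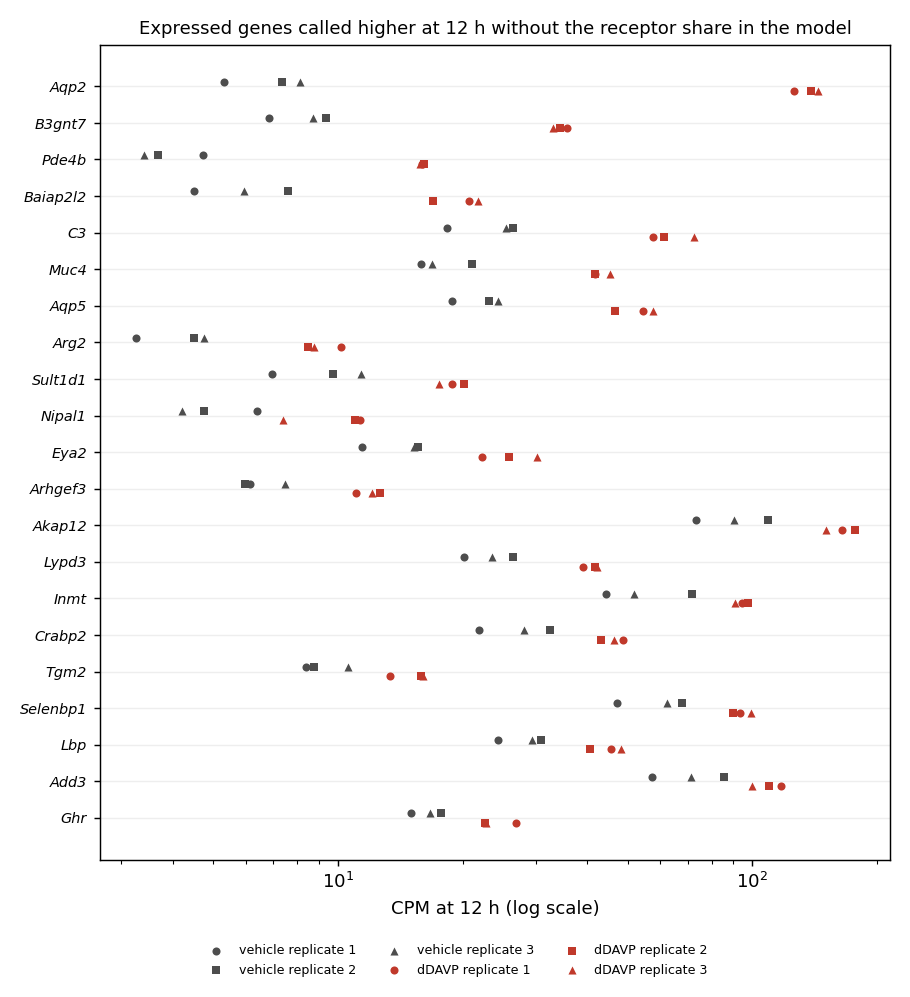
CPM in each of the 6 libraries at 12 h (log scale) for the 21 expressed genes called higher without the receptor share in the model, ordered by fold change. Grey points are vehicle and red points dDAVP libraries, with 1 symbol per replicate. The 2 colours do not overlap in any row, in genes chosen by their call.

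How firmly these rises held differed between genes. Aqp2, B3gnt7, Pde4b, Baiap2l2, C3, Muc4, Aqp5 and Lypd3 were called in each of the 6 fits without the share that left out 1 library at 12 h. The other 13 lost their call in at least 1 of them, and 11 of the 21 were called in 3 or fewer of the 6. With the share in the model, the only ones of the 21 to lose a call in such a fit were Arg2 (adjusted p = 0.138 without vehicle replicate 2), Arhgef3 (0.0651 without vehicle replicate 2) and Ghr (0.0746 without dDAVP replicate 1). Over all genes tested, the count called without the share was 13, 62 and 14 without vehicle replicates 1, 2 and 3, and 14, 10 and 11 without dDAVP replicates 1, 2 and 3, against 23 with all libraries.

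The 36 rises called only with the share in the model included targets of cyclic AMP signalling. Of 27 expressed genes of the CREB pathway and immediate early list, 4 rose and 1 fell with the share, and none was called without it (median log2 fold change 0.06 with the share, against 0.04 over all genes tested). Nr4a1, an orphan nuclear receptor induced by cyclic AMP, had 12.9, 17.9 and 17.8 CPM with vehicle and 27.5, 30.0 and 26.2 CPM with dDAVP (log2 0.74, adjusted p = 0.00523, and 0.0537 without the share). Its relative Nr4a2 had 6.48, 7.70 and 6.99 CPM against 12.0, 10.2 and 12.5 CPM (log2 0.68, adjusted p = 0.00542). Crem, which makes CREB-like activators and repressors, had 5.11, 7.45 and 6.17 CPM against 9.49, 9.92 and 9.27 CPM (log2 0.55, adjusted p = 0.0366). Sik1, a kinase that restrains CREB coactivators and a name chosen after its values were seen, had a log2 fold change of 0.47 (adjusted p = 0.0294). The groups do not overlap in any of these 4, which were named as called genes. Nr4a1 and Nr4a2 kept their call in 3 of 6 fits leaving out 1 library and Crem in 2, with the highest adjusted p without vehicle replicate 2 in each case (0.19, 0.114 and 0.426).

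Tmprss4, a membrane protease that can activate the epithelial sodium channel, was the 1 called gene of 22 expressed genes of sodium transport and its regulators (3.94, 6.08 and 6.12 CPM against 11.5, 10.0 and 9.22 CPM, log2 0.89, adjusted p = 0.0035 with the share). The channel subunits were not called. Scnn1a had log2 fold changes of -0.13 and -0.20 without and with the share, and Scnn1g -0.56 and -0.59 (adjusted p = 0.102 with the share). Sgk1, a kinase that stabilises the channel, had -0.07 in both fits (SE 0.17 and 0.15). Tmprss4 was called in 3 of 6 fits leaving out 1 library, with an adjusted p of up to 0.143 without vehicle replicate 2.

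Glycolysis and the response to low oxygen had the highest median of the lists with at least 10 expressed genes, 0.33 without and 0.27 with the share over 21 expressed genes. Of these, Ndrg1 and Gapdh were called higher with the share and none without it. Ndrg1, a gene induced by hypoxia, had 93.6, 147 and 123 CPM with vehicle and 193, 169 and 178 CPM with dDAVP (log2 0.51, adjusted p = 0.00517). The glycolytic enzyme Gapdh had 2404, 3747 and 3274 CPM against 3879, 3941 and 4431 CPM (log2 0.31, adjusted p = 0.0351), and vehicle replicate 1, the library with the highest receptor share, was its lowest. Gapdh kept its call in only 1 of 6 fits leaving out 1 library, up to an adjusted p of 0.465 without vehicle replicate 2, and Ndrg1 in 3, up to 0.213 without the same library. Ldha, lactate dehydrogenase, had an adjusted p of 0.0686.

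Other rises called with the share were Adh7 and Sat1. Adh7, an alcohol dehydrogenase, was the second of 17 expressed conjugating and xenobiotic enzymes after Sult1d1 (log2 0.65, adjusted p = 0.0225). Sat1, which acetylates polyamines, was the second of 16 expressed arginine and polyamine genes after Arg2 (log2 0.37, adjusted p = 0.0266). Both were called in 2 of 6 fits leaving out 1 library. Rassf10 and Sprr2g each rose by 0.92, and Sprr2g belongs to a family of near-identical genes, so its counts are uncertain. Avpi1, named for its induction by vasopressin and picked here after its values were seen, had 46.6, 64.1 and 51.4 CPM with vehicle and 74.3, 74.0 and 87.6 CPM with dDAVP (log2 0.48, adjusted p = 6.02e-05).

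Of 26 lists, 12 had no called gene among their expressed genes in either fit: collecting duct transcription factors (16 expressed genes), osmolyte genes (10), potassium channels (4), prostaglandin genes (10), vesicle trafficking (25), junctions and keratins (26), clock genes (19), cholesterol and fatty acid synthesis (26), the unfolded protein response (21), the cell cycle (30), interferon and NF-kB genes (22) and TGF-beta and matrix genes (20). Below the limit of 5 CPM, Cited1 of the collecting duct transcription factor list was called higher in both fits. Its mean was 0.753 CPM with vehicle and 2.88 CPM with dDAVP (log2 1.91 without and 1.87 with the share, edgeR's adjusted p = 0.00637 and 0.000388). Their medians with the share ran from -0.07 (TGF-beta and matrix) to 0.13 (potassium channels).

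The V2 receptor gene itself, Avpr2, had 37.5, 57.7 and 46.8 CPM with vehicle and 50.3, 48 and 50.2 CPM with dDAVP (log2 0.02, SE 0.08, with the share). Of 12 expressed genes from receptor to protein kinase A, 1 was called, Gnas, which encodes the Gs alpha subunit and fell with the share in the model. It had 426, 656 and 393 CPM with vehicle and 261, 238 and 378 CPM with dDAVP. The highest dDAVP library was just below the lowest vehicle library, and the log2 fold change was -0.86 (SE 0.19, adjusted p = 0.0452, and 0.917 without the share). Gnas was called in 2 of 6 fits leaving out 1 library, and its adjusted p was highest without vehicle replicates 1 and 2 (0.339 and 0.356). Prkaca, the catalytic subunit of protein kinase A, had 86.2, 123 and 73.9 CPM against 37.4, 29.9 and 65.2 CPM and was not called (log2 -1.23, adjusted p = 0.101 with the share).

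All 22 falls were called only with the share in the model, and their adjusted p without it ran from 0.0655 to 0.917. The clearest was Rasl11a, a small GTPase of the Ras family, with 11.4, 18.2 and 15.4 CPM with vehicle and 7.20, 8.69 and 7.84 CPM with dDAVP (log2 -1.0, SE 0.12, adjusted p = 2.76e-05). It was the 1 named fall of 17 that was called in all 6 fits leaving out 1 library. P3h2, a collagen prolyl hydroxylase, fell most (63.5, 83.2 and 42.1 CPM against 19.5, 15.6 and 28.8 CPM, log2 -1.69, adjusted p = 0.0036). The call for P3h2 was lost when vehicle replicate 1, vehicle replicate 2 or dDAVP replicate 2 was left out (adjusted p = 0.0519, 0.0998 and 0.0506). Rcor2, a corepressor, had 6.24, 9.07 and 5.52 CPM against 2.46, 2.83 and 4.14 CPM and was not called when vehicle replicate 2 was left out (adjusted p = 0.326).

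Further falls of at least 2-fold were Ppp1ccb, Adgra3 and Otud1 (log2 -1.54, -1.21 and -1.19). Ppp1ccb is a processed copy of a phosphatase gene, so reads could be shared with its parent. Adgra3 is an adhesion receptor and Otud1 a deubiquitinase. Jag1, a Notch ligand, had 31.7, 43.9 and 32.3 CPM against 17.3, 17.6 and 23.9 CPM, and Jund, a partner in the AP-1 factor, 164, 260 and 194 CPM against 148, 109 and 154 CPM. Nudt4, Sertad4, Zdhhc2, Fam241a, Galnt1, Lgr4 and Nipa1 fell by 0.68 to 0.90 on the log2 scale. Of the 17 named falls, 15 were called in at most 3 of 6 fits leaving out 1 library.

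Vehicle replicate 2, the library of lowest receptor share, was the highest vehicle library in 21 of the 22 falls, in 44 of the 57 rises and in 77.5% of all expressed genes. The dDAVP library of lowest share, replicate 3, was the highest dDAVP library in 17 of the 22 falls, in 22 of the 57 rises and in 44.9% of all expressed genes. Whether the falls differ from other genes in this was not tested. The part of the share in these falls beyond the model was not tested. Over all genes tested, 25 falls were called with the share, and 5, 2 and 42 without vehicle replicates 1, 2 and 3. Without dDAVP replicates 1, 2 and 3 they numbered 22, 7 and 40. With the share entered on a linear scale in place of log2, 201 genes fell and 61 rose.

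**Figure D4:**
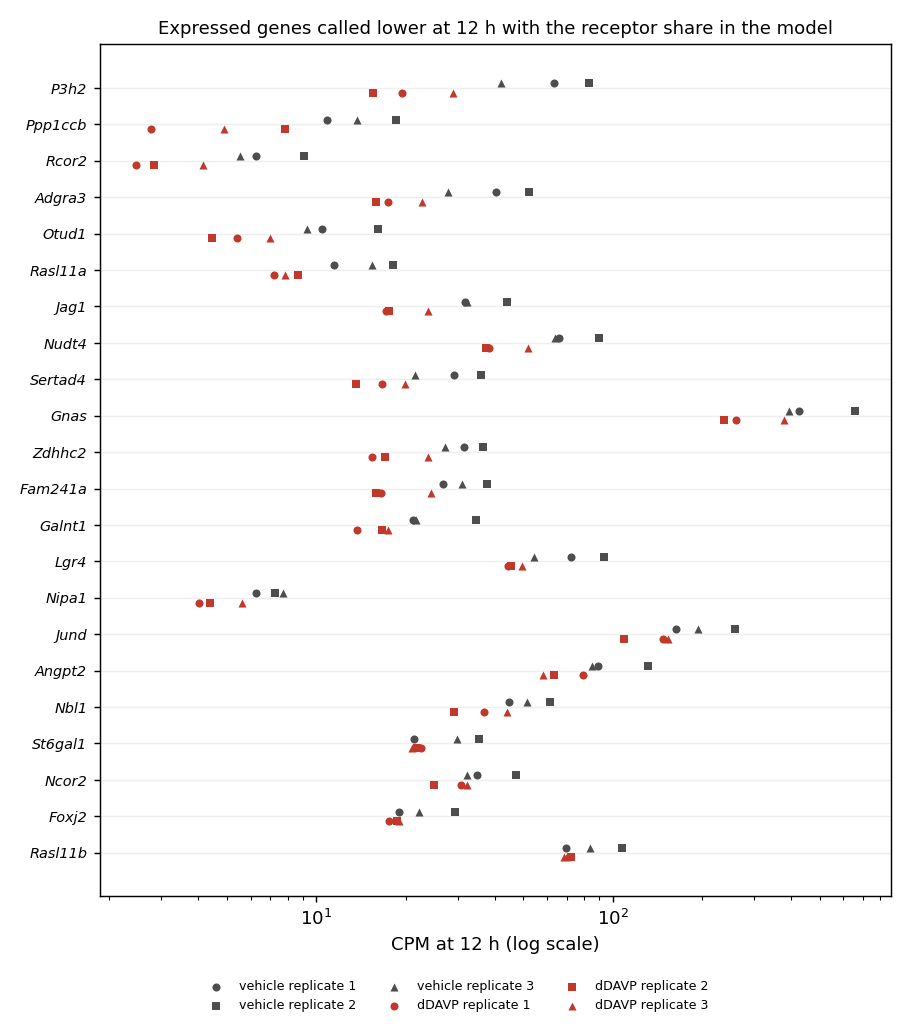
CPM in each of the 6 libraries at 12 h (log scale) for the 22 expressed genes that fell in the fit with the receptor share, ordered by fold change. Vehicle replicate 2 (grey squares) is the highest library in nearly every row, and the groups overlap in the lowest 4 rows.

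Cebpb, a transcription factor of stress and differentiation, had a large difference that was not called. Its level was 19.2, 14.8 and 3.09 CPM with vehicle and 3.58, 2.88 and 3.35 CPM with dDAVP. Vehicle replicate 3 was within the range of the dDAVP libraries, the log2 fold change was -1.93 (SE 0.66), and the adjusted p was 0.917 without and 0.312 with the share.

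The rises at 12 h were mostly present at the other times. With the share in the model, 56, 56 and 57 of the 57 had the same sign at 3, 6 and 24 h, and 44, 42 and 43 were called higher there. Over all genes tested, 0.622%, 0.279% and 0.252% were called higher at these times in the same fit, and 60.3%, 54.9% and 56.0% of all expressed genes had the same sign as at 12 h. Called at all 4 times were 32 of the 57, and at 12 h alone 4. Of all 12229 expressed genes, 35 were called at 3, 6 and 24 h in this fit, in either direction. The median log2 fold change of the 57 was 0.82 at 3 h, 0.73 at 6 h, 0.60 at 12 h and 0.54 at 24 h. The 22 falls differed from this, with medians of 0.10, 0.15, -0.86 and -0.48 in the same order of times. Only 8 and 7 of them had the same sign at 3 and 6 h, 21 had it at 24 h, and 18 were called at 12 h alone. The test of the difference between times, in the same fit, called 6 of the 22 against 3 h. It called 0.343% of all expressed genes in that comparison, and 0 of the 22 against 6 h or 24 h. Being called at 12 h alone is thus no measure of a difference between times. Choosing genes by their change at 12 h favours large values at that time, so the heights of these medians are a description.

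**Figure D5:**
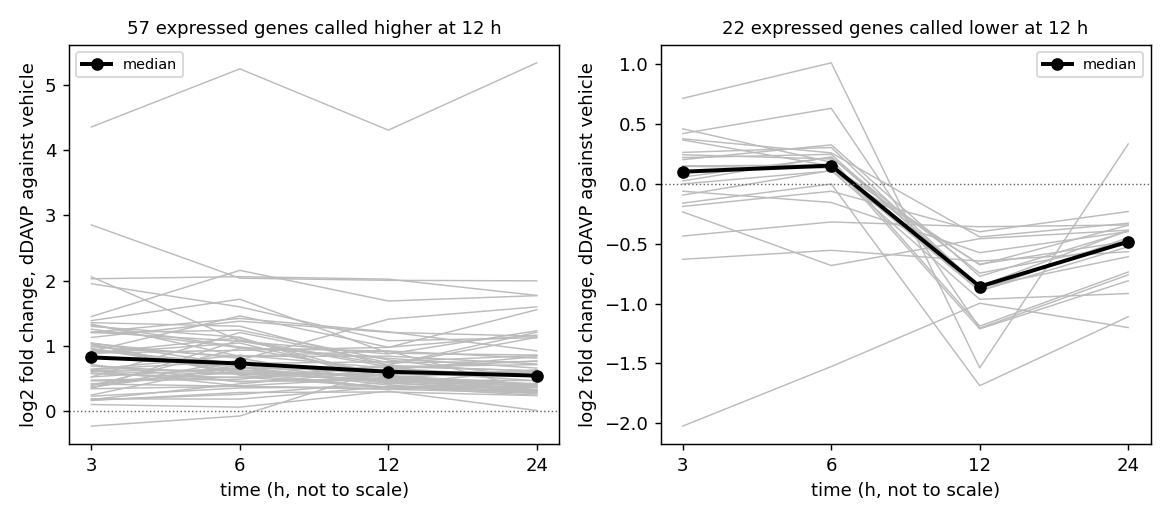
Log2 fold change of dDAVP against vehicle at each time (receptor share in the model) for the 57 expressed genes called higher at 12 h (left) and the 22 called lower (right). Each grey line is 1 gene and the black line the median, which goes from 0.82 to 0.54 on the left and from 0.10 to -0.48 on the right. The 4 times are evenly spaced and not to scale.

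The test of the difference between times bears on single genes. The effect at 12 h differed from that at 3 h for 7 genes without and 49 with the share (0.0235% and 0.165% of all genes tested), of which 5 and 42 were expressed genes. Of the 42, the effect at 12 h was lower than at 3 h in 35. Of the expressed genes called in both fits, Nr4a2 had the largest difference, with a log2 fold change of 2.06 at 3 h, 1.07 at 6 h, 0.68 at 12 h and 0.71 at 24 h (12 h minus 3 h -1.38, SE 0.17, adjusted p = 0.000251). Soat1, which esterifies cholesterol, had 1.30 at 3 h and 0.41 at 12 h (adjusted p = 0.000756). Tecpr1, Vwa2 and Dop1b rose at 3 h (1.01, 0.87 and 0.93) and were not called at 12 h (0.27, -0.12 and 0.20), with an adjusted p of the difference of 0.000668, 0.000632 and 0.00214. These 5 were also the expressed genes called in this comparison without the share.

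C3 went the other way. Its log2 fold change was 0.36 at 3 h, 0.78 at 6 h, 1.41 at 12 h and 1.60 at 24 h with the share, and the difference of 1.05 between 12 and 3 h was called (SE 0.18, adjusted p = 0.00693, and 0.172 without the share). Avpr2 was lower with dDAVP at 3 h (-0.52, adjusted p = 0.000568) and level at 12 h, a difference of 0.54 (adjusted p = 0.0348). Rasl11a had -2.02 at 3 h, -1.53 at 6 h, -1.0 at 12 h and -1.20 at 24 h, with a difference of 1.03 between 12 and 3 h (adjusted p = 0.00827). For B3gnt7 the effect was 2.85 at 3 h and 2.00 at 12 h (adjusted p = 0.0348 for the difference). These tests of C3, Avpr2, Rasl11a and B3gnt7 were called only with the share.

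Against 6 h, 150 genes differed without the share (0.504% of all genes tested), among them 141 expressed genes, and in all 141 the effect was lower at 12 h. With the share in the model 1 gene was left, Tecpr1 (0.00336%; 1.06 at 6 h and 0.27 at 12 h, adjusted p = 0.00571). The receptor share at 6 h was 0.43% to 0.564% in the vehicle libraries and 0.131% to 0.268% in the dDAVP libraries, so there it separated the groups, unlike at 12 h. Of the 22 genes called lower at 12 h, 13 were called higher at 6 h in the fit without the share, Gnas and Jund among them (0.97 and 0.66). That fit called 20.9% of all genes tested and 49.7% of the expressed genes higher at 6 h, so the count for the falls is near the background. Aqp2 had log2 fold changes of 4.38, 5.29, 4.31 and 5.34 at 3, 6, 12 and 24 h without the share. Its difference between 12 and 6 h was called without the share (-0.98, adjusted p = 0.0391) and not with it (-0.94, adjusted p = 0.126). Against 24 h no gene was called in either fit, with 498 and 1810 genes at an unadjusted p under 0.05 without and with the share. For Aqp2 the log2 difference between 12 and 24 h was -1.04 (SE 0.22) without and -1.03 (SE 0.20) with the share. It was as large as the difference between 12 and 6 h and was not called (edgeR's adjusted p = 0.563 with the share). The absence of calls is thus no evidence that effects were equal at 12 and 24 h.

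Promoter sequence was read for the genes that moved together, from RefSeq (GRCm38.p6), as the 250 bases before each start. A promoter was found for 38 of the 57 rises and 17 of the 22 falls. The 6 shown belong to the strongest rises, to 2 early response genes and to the firmest fall, and were chosen after the motif matches were seen. They lie at chr15:99578806-99579055 (plus strand) for Aqp2, chr4:102421305-102421554 (plus) for Pde4b, 1 of 4 starts of that gene in the table, chr1:86302971-86303220 (plus) for B3gnt7, chr15:101266596-101266845 (plus) for Nr4a1, chr2:57124004-57124253 (minus) for Nr4a2 and chr5:146844821-146845070 (plus) for Rasl11a. Each is written 5′ to 3′ on the strand of the gene, and capitals mark the half-site of the cyclic AMP response element, TGACG or its reverse complement CGTCA.
Aqp2: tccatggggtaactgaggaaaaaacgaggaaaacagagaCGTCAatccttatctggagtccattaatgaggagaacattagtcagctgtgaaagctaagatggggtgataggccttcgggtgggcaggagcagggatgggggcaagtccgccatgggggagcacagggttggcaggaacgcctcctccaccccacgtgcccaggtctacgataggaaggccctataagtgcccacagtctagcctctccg
Pde4b: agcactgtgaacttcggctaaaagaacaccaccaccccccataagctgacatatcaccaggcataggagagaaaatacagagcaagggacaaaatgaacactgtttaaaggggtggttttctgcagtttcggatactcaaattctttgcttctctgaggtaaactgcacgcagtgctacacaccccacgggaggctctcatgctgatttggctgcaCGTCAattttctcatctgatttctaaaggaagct
B3gnt7: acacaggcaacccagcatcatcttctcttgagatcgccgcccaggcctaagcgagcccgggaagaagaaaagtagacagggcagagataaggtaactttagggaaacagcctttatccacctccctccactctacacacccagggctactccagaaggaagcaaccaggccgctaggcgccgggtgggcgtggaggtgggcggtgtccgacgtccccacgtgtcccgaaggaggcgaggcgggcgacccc
Nr4a1: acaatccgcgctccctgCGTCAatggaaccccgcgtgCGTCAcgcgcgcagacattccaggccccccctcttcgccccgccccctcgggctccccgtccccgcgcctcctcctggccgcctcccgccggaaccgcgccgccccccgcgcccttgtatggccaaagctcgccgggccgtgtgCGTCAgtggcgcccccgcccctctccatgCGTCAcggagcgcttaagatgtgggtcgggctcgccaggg
Nr4a2: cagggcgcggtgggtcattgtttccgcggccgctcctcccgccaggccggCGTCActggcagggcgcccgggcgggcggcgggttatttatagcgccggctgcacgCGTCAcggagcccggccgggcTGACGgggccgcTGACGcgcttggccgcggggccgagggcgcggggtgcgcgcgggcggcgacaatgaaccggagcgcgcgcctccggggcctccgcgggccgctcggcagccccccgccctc
Rasl11a: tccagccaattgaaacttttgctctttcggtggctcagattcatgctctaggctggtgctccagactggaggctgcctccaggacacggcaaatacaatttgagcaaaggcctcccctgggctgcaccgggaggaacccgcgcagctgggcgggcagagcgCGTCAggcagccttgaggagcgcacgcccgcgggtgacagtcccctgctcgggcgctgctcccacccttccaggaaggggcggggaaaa

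The half-site stood once in the windows of Aqp2, Pde4b and Rasl11a, 4 times in those of Nr4a1 and Nr4a2, and not in that of B3gnt7. For Pde4b the start shown was picked from 4 because its window held the half-site, so that match was fixed by the choice. It was in 25% of the 52 promoters of rises and in 34.8% of the 23 promoters of falls, against 26.9% of 11432 promoters of expressed genes and 17.8% of all 32851 promoters. The full element TGACGTCA, which contains both half-sites, was in 1.92% of the rises and 0% of the falls (2.63% of expressed genes). The NR4A element AAAGGTCA, searched on both strands, was in 1.92% and 0% (0.848% of expressed genes), and the AP-1 element TGANTCA in 9.62% and 4.35% (4.41% of expressed genes). Promoters of rises and of expressed genes thus held the half-site at about the same share.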

How the data were processed

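RNA from 24 libraries of mpkCCD cells (8 groups of treatment and time, 3 libraries each) was sequenced. Per the labels' protocols, cDNA was made with the SMART-Seq HT kit and libraries with Nextera reagents. The deposited tables hold estimated counts per Ensembl gene and TPM made by the authors. The submitters' processing notes name Salmon 0.14.10 and the build GRCm38.p6. How transcripts were summed to genes is not given in the sources used here. Each of the 48 sample columns was matched to its labels.

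Estimated counts were rounded and fitted with edgeR 4.0.16 (R 4.3.3): TMM scaling (factors 0.814 to 1.326), 29743 genes kept by filterByExpr, 1 mean per group over all 24 libraries, quasi-likelihood F test, Benjamini-Hochberg adjustment over the genes tested and a threshold of 0.05, without and with the centred log2 receptor share. CPM used TMM library sizes, except in the sums of markers and the alternative filter of at least 5 CPM, which used total counts. The test was run on simulated data with known changes first. Apart from those changes the simulated libraries shared the same gene means, so a spread of the receptor share was not part of that run. Gene names came from GENCODE M21 by identifier (54346 of 54432 matched). Alternatives used limma 3.58.1 on log2 TPM and DESeq2 1.42.0. Plots used Python 3.11.15 with matplotlib 3.10.9.

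Named genes were every expressed gene called without the share, the 15 largest rises and falls called with it, up to 3 of smallest p from each list, the 6 of smallest p in each comparison of times, and 15 fixed genes; clone and predicted-gene names were left out of the first rules. The gene lists, the members and the rules were chosen with earlier results of these data known. No replicate duplicated another (chi-square per gene 7.49 to 61.3 between pairs).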

Additional observations from a re-analysis of the deposited data

Results flagged for a closer look

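For some named genes the test of the difference between 12 h and another time passed the threshold (edgeR's quasi-likelihood test, adjusted over all genes). Values are the log2 effect at 12 h minus that at the other time, and none of them is explained here. Against 3 h without the receptor share these were Nr4a2 (-1.44, adjusted p = 0.00538), Ramp3 (-3.02, adjusted p = 0.00538), Tecpr1 (-0.74), Vwa2 (-1.10), Soat1 (-0.98) and Dop1b (-0.75). Ramp3, a receptor partner that stayed below 5 CPM at 12 h, had a mean of 7.42 CPM at 3 h, 7.89 at 6 h and 1.42 at 12 h with dDAVP, against 0.478, 0.822 and 0.748 CPM with vehicle.

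Against 3 h with the share in the model only, the differences were -0.68 for Add3, -1.63 for Adgra3, 0.54 for Avpr2, -0.85 for B3gnt7, 1.05 for C3, -1.55 for Cotl1 and -0.66 for Crabp2. They were -1.76 for Crebzf, -0.84 for Gm35279, -0.89 for Hsd11b2, -1.04 for Nipa1, -2.25 for Ppp1ccb, 1.03 for Rasl11a and -1.67 for Rcor2.

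Against 6 h without the share, the differences were -2.28 for Adgra3, -0.98 for Aqp2, -4.91 for Cebpb, -1.92 for Cotl1, -0.87 for Crabp2, -2.46 for Crebzf, -1.51 for Fam241a and -1.56 for Galnt1. They were -0.92 for Gm35279, -1.72 for Gnas, -1.25 for Jund, -1.37 for Lgr4, -1.50 for Nudt4, -1.91 for Otud1, -2.20 for P3h2, -2.91 for Ppp1ccb and -2.01 for Ppp2r2d. They were -2.23 for Prkaca, -2.33 for Ramp3, -1.71 for Rcor2, -1.48 for Sertad4, -1.16 for Smad7, -0.95 for Soat1, -0.79 for Tecpr1, -1.03 for Vwa2 and -1.45 for Zdhhc2. With the share in the model Tecpr1 alone of these passed against 6 h, and the receptor share separated the groups at 6 h.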

How the results depend on the processing

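The 12 h count of 23 genes without the receptor share became 13 at a threshold of 0.01, 10 with median-of-ratios size factors, 100 with a filter of at least 5 CPM, 88 with the share, 247 with the share and that filter, and 7 from the 6 libraries at 12 h alone. It ranged from 10 to 62 when single libraries were left out, and was 9 without vehicle replicates 1 and 2, an alternative chosen after seeing the data. With the share, 88 became 51 at 0.01, 156 without a filter (78 higher, 78 lower), 247 at 5 CPM (152 and 95), 262 with a linear share (61 and 201) and 34 on log2 TPM plus 1, and ranged from 36 to 144 over single libraries. Median-of-ratios size factors gave 57 higher and 9 lower, against 63 and 25. Adding pseudogene names to the receptor genes (1730 genes, also chosen later) again gave 88.

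Deviations from the group mean correlated at 0.328, -0.0923 and -0.405 between same-numbered libraries over the expressed genes. Between vehicle replicate 2 and dDAVP replicate 3, the libraries of lowest receptor share in their groups, they correlated at 0.391. With 3 libraries per group and a receptor share that differs between them, these values cannot show whether the numbers pair libraries. The replicate block gave 37 genes in place of 23, and 95 with the share. For 12 h against 3 h, 7 genes became 1 with median-of-ratios factors, 2 with the replicate block, 49 with the share, and 0 to 87 over single libraries. For 12 h against 6 h, 150 became 0, 4 and 1, and 0 to 230. For 12 h against 24 h, 0 became 1 without a filter and 0 to 1 over single libraries. The causes were not tested. A limit of 1 CPM in place of 5 gave 19834 expressed genes. The log2 ratio of the receptor share ran from -0.90 to -0.03 over single libraries. With 2 against 3 libraries the exact permutation test cannot give a p below 0.1, and it reached 0.1 without vehicle replicate 2.

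No value of a named gene that was called in either fit compared changed sign. Over all named genes in both fits, called or not, 146 recomputed values passed the threshold where the reported one did not, and 319 the reverse. The other 3540 kept their side of the threshold, which for genes not called can include a change of sign. The calls of the falls depend on single libraries and on the form of the covariate, and limits set by depth (17.5 to 23.0 M counts) were not tested.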
